A study of Mus musculus with 8 samples.

Results

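The genes described here encode the enzymes that remove superoxide and peroxides inside liver cells. They are the superoxide dismutases Sod1 and Sod2, the glutathione peroxidases Gpx1 and Gpx4, and the peroxiredoxins Prdx1 to Prdx6. They were taken as a list of 10 symbols out of 24079 symbols present in both assays. All 10 were found in each of the 8 libraries, and all 10 passed the filter on low values (a mean of at least 1 RPKM over the 4 libraries of an assay) for mRNA and for ribosome-protected fragments (RPFs).

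The livers came from male C57BL/6 mice, an inbred laboratory strain, which were 8 weeks old when the diets began. The HF group received a high-fat diet, in which fat supplied 45% of the energy. The HB group received that diet and drinking water with 2% (w/v) betaine, a methyl donor made from choline. The labels give postnatal week 25 as the time of the livers, but the sources differ on how long the diet lasted, so the age at collection is uncertain. Both groups therefore carry the high-fat diet, and mice on a standard diet were not analysed here. Each group had 6 mice, of which the pair nearest to the mean body weight was sequenced. The labels also describe preparations of RNA that were mixed in equal amounts, so the replicates are counted here as libraries and not as mice, and p-values measure only the spread between these libraries, which may be technical. RNA-seq of polyadenylated RNA gave 2 libraries per group. Ribo-seq, which sequences the pieces of mRNA protected from nuclease by a ribosome, also gave 2 per group.

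Superoxide is a by-product of mitochondrial respiration and of many oxidases. Dismutases turn it into oxygen and hydrogen peroxide, and peroxidases then reduce hydrogen peroxide and lipid peroxides to water and alcohols. Glutathione peroxidases draw their electrons from glutathione, most peroxiredoxins draw theirs from thioredoxin, and catalase in peroxisomes needs no reductant. The hepatocyte is rich in all of these enzymes because it oxidises fatty acids and drugs. Gpx1 and Gpx4 are selenoproteins, in which the ribosome reads a UGA codon, normally a stop, as selenocysteine.

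The RNA-seq libraries HF1, HF2, HB1 and HB2 held 11661207, 11824128, 22543471 and 18082686 reads, as recovered from the steps between low values. The Ribo-seq libraries held 387980, 1056546, 257086 and 141890 reads, so that 3 reads on a gene of 1 kb were worth 2.84 RPKM in HF2 and 21.1 RPKM in HB2. The shallowest Ribo-seq library was HB2, and changes that depend on it or on another single library are given without that library as well. Over all tested genes the log2 fold change of HB against HF had a median of -0.19 for mRNA, -0.43 for RPF and -0.35 for translation efficiency (TE, the ratio of RPF to mRNA RPKM), and the changes of single genes are to be read against these shifts. Of the marker lists, the 7 hepatocyte genes summed to 46367 and 47390 RPKM of mRNA in HF and to 54266 and 52249.8 in HB, against 102 to 128 for 6 genes of Kupffer cells and macrophages. The 5 stellate cell and fibroblast genes summed to 30.4 and 30.0 RPKM in HF and to 69.1 and 39.5 in HB. The hepatocyte, stellate cell and red blood cell sums were higher in both HB libraries, like the mRNA of most of the 10 genes. In RPF the stellate cell and fibroblast sum was lower in both HB libraries (139.9 and 115 RPKM in HF, 97.0 and 88.5 in HB), as it was for Sod2, Prdx2 and Prdx6. The mRNA of the 4 neutrophil genes was also lower there, with 8.52 and 53.7 RPKM in HF and 3.41 and 4.27 in HB. So was that of the 5 lymphocyte genes (2.11 and 3.23 RPKM in HF, 1.74 and 1.48 in HB). RPFs of the 4 cholangiocyte genes were low and also lower in both HB libraries (4.97 and 1.14 RPKM in HF, 0.938 and 0 in HB). The part of these cell types in the results was not tested. The 9 red blood cell genes summed to 675 and 524 RPKM of mRNA in HF and to 738 and 2249 in HB, with Hbb-b2 at 0. In bulk liver, fewer cells of a type and less RNA per cell cannot be told apart.

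At the mRNA level, all 10 genes had a log2 fold change above 0 in HB against HF (39.8% of all tested genes did), with a median of 0.63, although Sod1 lay at -0.016 when the libraries were rescaled to a common sum. In 8 of the 10, all but Sod1 and Gpx4, both HB libraries lay above both HF libraries. This pattern was found in 24.8% of the 10687 tested genes, and the opposite one, held by none of the 10, in 43.3%. An adjusted p under 0.05 (limma) was reached by 4 of the 10, Gpx1, Prdx1, Prdx3 and Prdx6, all higher in HB, against 7.92% of all tested genes higher and 19.1% lower. Under the stricter rule of the study, an unadjusted p under 0.001 and a change of more than 1 on the log2 scale, Prdx1 was the only gene of the 10 called higher and none was called lower, against 2.30% and 6.56% of all tested genes. Without the filter on low values no gene of the 10 reached an adjusted p under 0.05, and 5 had an unadjusted p under 0.05 (limma). Without HB1, Gpx1 was called by the stricter rule too (unadjusted p = 6.857e-04, limma), and without HB2 so was Prdx3 (5.918e-04). Leaving out HF1 left 1 of the 4 (Prdx1), and leaving out HF2 left 2 of them (Gpx1 and Prdx1).

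**Figure D1:**
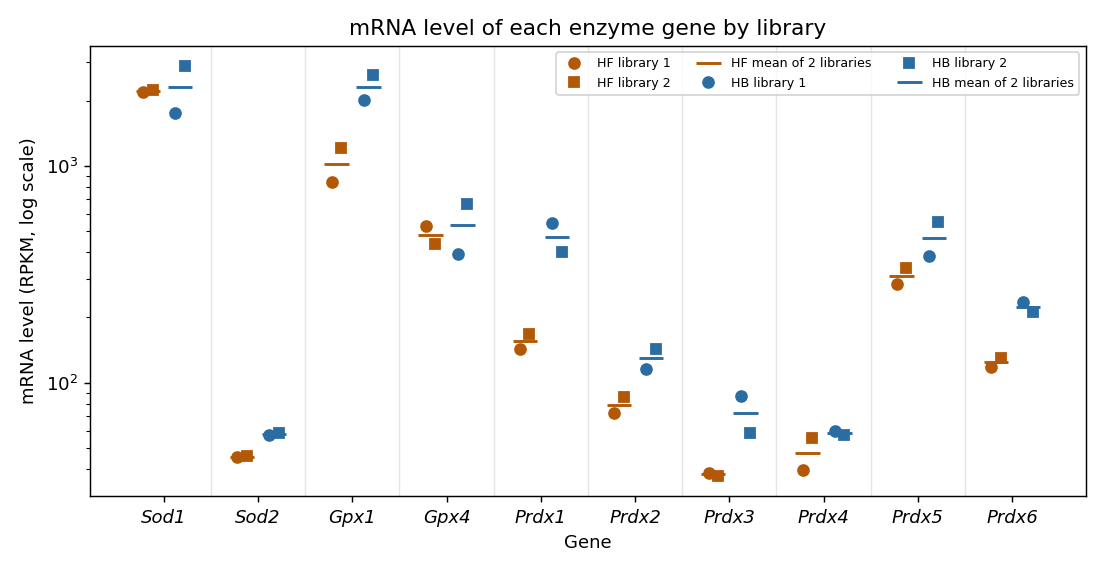
mRNA level in RPKM (log axis) of the 10 genes in each RNA-seq library, with circles for library 1, squares for library 2 and bars for the mean of the 2 libraries of a group. Both HB libraries lie above both HF libraries in 8 genes, whereas those of Sod1 and Gpx4 enclose the HF values.

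At the RPF level, 6 of the 10 genes had a log2 fold change above 0 and 4 below, against 29.6% of all tested genes above 0. Their median was 0.06, which is 0.49 above the median of all genes, and 7 of the 10 lay above that median. This value of 0.06 depends on single libraries, being -0.28 without HB1, -0.11 without HF2, -0.011 without HF1 and 0.19 without HB2, with 2 to 7 genes above 0. The median of all genes was not worked out for libraries rescaled to a common sum, which lowered the RPF changes of all 10 and put all 10 below 0. None was called higher and 1, Prdx2, was called lower by the study's rule for RPF (an unadjusted p under 0.05 and a change of more than 1 on the log2 scale), against 1.58% and 7.86% of the 11190 genes tested. Both HB libraries lay below both HF libraries in 3 genes (Sod2, Prdx2 and Prdx6) against 33.2% of all tested genes, and above them in none, against 9.07%. Without HB2 the RPF changes of these 3 genes were -0.59, -0.84 and -0.21, and without HB1 they were -0.46, -1.34 and -1.07, where Prdx6 was called lower as well. No gene of the 10 had an adjusted p under 0.05 for RPF (limma), and 1 had an unadjusted p under 0.05. Over all 11190 genes the adjusted test also made 0 calls, with 1122 genes at an unadjusted p under 0.05.

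TE was lower in HB in 8 of the 10 genes, as in 63.2% of all genes tested, with a median log2 change of -0.83 that lay 0.48 below the median of all genes. The 2 above 0, Sod1 and Gpx4, also fell below 0 when the libraries were rescaled to a common sum, which lowered the TE changes of all 10. The HB and HF values did not overlap, with HB lower, in 7 genes (Sod2, Gpx1, Prdx1, Prdx2, Prdx3, Prdx5 and Prdx6), against 31.9% of the 9455 genes tested, and no gene of the 10 showed the opposite, against 13.2%. These ratios join RNA-seq and Ribo-seq libraries by number, although libraries with the same number did not deviate together (correlation across genes of -0.00239 in HF and -0.0774 in HB). With the numbers crossed, the same 7 genes were lower without overlap, against 32.3% of all genes, and Sod1 was higher without overlap, against 14.8%. An unadjusted p under 0.05 (limma) was reached by Prdx1, Prdx2 and Prdx6, all lower in HB, against 9.37% of all genes tested. Without HB2 the changes of these 3 genes were -1.25, -1.38 and -1.12, each still with an unadjusted p under 0.05, whereas without the HF1 or the HF2 pair none of the 10 had one. With crossed numbers Prdx1 lost it (unadjusted p = 0.0628, limma) and Gpx1 gained it (0.0416), and with the replicate block Prdx2 lost it (0.0746). Prdx2 also lost it with 0.1 in place of 1 added to each RPKM (0.0811), and Prdx1 without the variance trend (0.0526). Sod2 gained it without the filter on low values (0.00122). An interaction model over both assays gave 5 genes (Prdx1, Prdx2, Prdx6, Sod2 and Gpx1), and a common sum gave 6. The share of all genes with such a p was not worked out for these settings. None of the 10 passed the threshold of the study for TE, a log2 change beyond 2 with an unadjusted p under 0.05, against 6.09% of all genes tested. No adjusted p for TE lay below 0.378 in the 10 genes (limma), but without the HB1 pair Prdx2 and Prdx6 reached 0.0402 and 0.0315, the lowest of their alternatives, which ranged up to 1.00 for both.

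**Figure D2:**
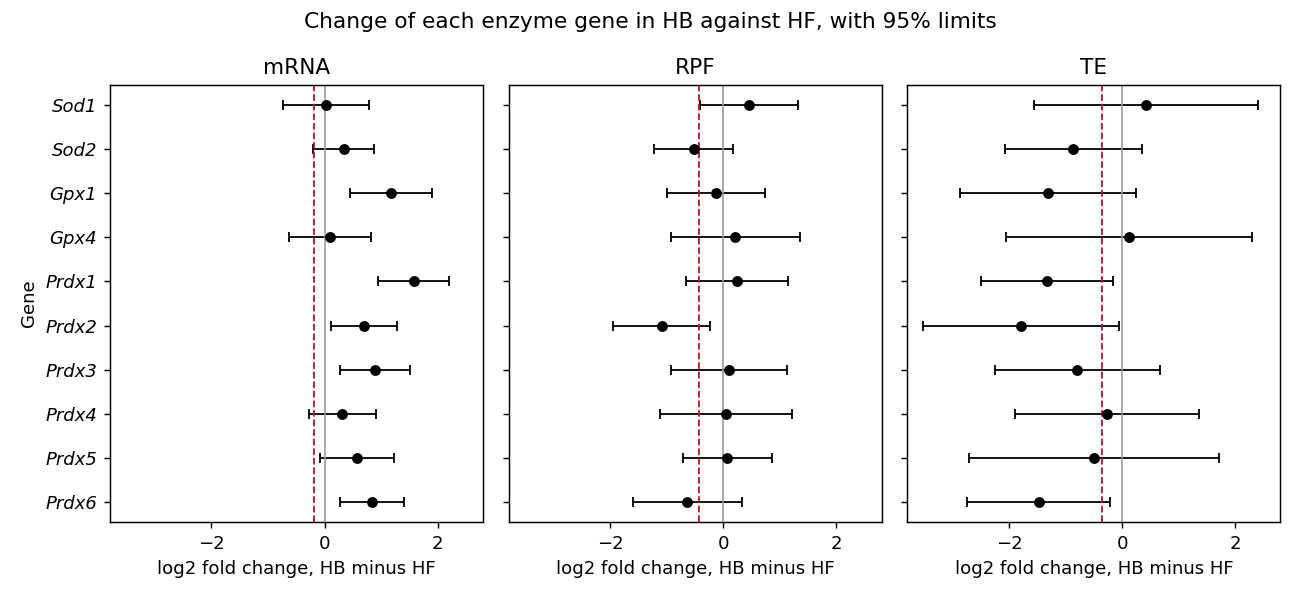
Log2 fold change of HB against HF for mRNA, RPF and TE (points) with the 95% limits of the limma fit (bars). The grey line marks 0 and the dashed red line the median of all tested genes, -0.19, -0.43 and -0.35 in that order, and the mRNA points of all 10 genes lie to the right of their dashed line.

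Sod1 (chr16:90220754-90226329 on GRCm38, plus strand) encodes the copper and zinc dismutase of the cytosol. Its mRNA level was 2179 and 2232 RPKM in HF and 1759.7 and 2873 RPKM in HB. The HB libraries lay on either side of both HF libraries, and the log2 fold change was 0.03 (95% limits -0.73 to 0.78, adjusted p = 0.960, limma). Without HB2 the change was -0.33 and without HB1 it was 0.38. It was the most abundant mRNA of the 10 in HF and stood at rank 24 of all tested genes there. Its RPF level was 558 and 727 RPKM in HF and 1063 and 719 RPKM in HB. These groups overlapped as well, and the RPF log2 fold change of 0.46 had limits of -0.42 to 1.33 and was 0.74 without HB2, 0.17 without HB1 and 0.27 without HF1. The TE of Sod1 was 0.256 and 0.326 in HF and 0.604 and 0.250 in HB, with the HB values on either side of the HF values. With the library numbers crossed the values were 0.250 and 0.333 in HF and 0.370 and 0.409 in HB, so that the overlap depends on which libraries are joined. The log2 change of 0.43 in TE was 1.06 without HB2 and -0.21 without HB1.

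Sod2 (chr17:13006846-13040063, plus strand) encodes the manganese dismutase of the mitochondrial matrix. Its mRNA level was 45.5 and 45.8 RPKM in HF and 57.5 and 58.6 RPKM in HB, so the groups were tight and did not overlap. The log2 fold change was small, 0.34 (limits -0.20 to 0.88, adjusted p = 0.318, limma). The RPF level went the other way, with 81.6 and 81.9 RPKM in HF and 53.9 and 59.0 RPKM in HB, a log2 fold change of -0.53 (unadjusted p = 0.111) that lay 0.10 below the median of all genes. These RPF values rested on 121 and 331 reads in HF and on 53 and 32 reads in HB. The TE was 1.79 in both HF libraries and 0.938 and 1.01 in HB, a log2 change of -0.87 with limits of -2.08 to 0.35 that was -0.92 without HB2. The mRNA and RPF values of Sod2 therefore each separated the groups, in opposite directions, and neither difference passed its test in the fit without rescaling. At a common sum, which lowered the RPF change of every gene described here, that of Sod2 was -1.39 and was called lower (unadjusted p = 0.0181, adjusted p = 0.196, limma).

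Gpx1 (chr9:108338903-108340343, plus strand), the main glutathione peroxidase of the cytosol, had 846 and 1203 RPKM of mRNA in HF and 2004 and 2617 RPKM in HB. Both HB libraries were higher, with means of 1025 ± 252 in HF and 2310.1 ± 434 in HB (SD, 2 libraries each) and a log2 fold change of 1.18 (SE 0.32, adjusted p = 0.0258, limma). Without HF1 the change was 0.93 and the adjusted p was 0.259. Over the alternatives of this value the adjusted p ranged from 0.00257 to 0.303 (limma). The enzyme is also abundant in red blood cells, and HB2, its highest library, was the one with the highest summed red blood cell markers (2249 RPKM). HB1 had 738 RPKM of these markers, and without HB2 the mRNA change of Gpx1 was 0.99. The part of these cells in the result was not tested. The RPF level of Gpx1 was 1746 and 1288 RPKM in HF and 1560.4 and 1204 RPKM in HB. These groups overlapped, and the log2 fold change was -0.13 with limits of -0.996 to 0.737, turning to 0.20 with all libraries set to a common median and to 0.090 without HF1. With mRNA higher and no clear change in RPFs, the TE was 2.06 and 1.07 in HF and 0.779 and 0.460 in HB. The 4 TE values did not overlap between the groups, and the log2 change of -1.31 had an unadjusted p of 0.0862 (adjusted p = 0.468, limma). It ranged from -0.84 without the HF1 pair to -1.78 without the HF2 pair and was -0.93 without HB2. At a common sum, which lowered the TE change of every gene described here, it was -2.14 and was called lower.

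Gpx4 (chr10:80047166-80056439, plus strand), which reduces lipid peroxides within membranes, had 526 and 438 RPKM of mRNA in HF and 394 and 670.1 RPKM in HB. The groups overlapped, with a log2 fold change of 0.10 (limits -0.63 to 0.82, adjusted p = 0.844, limma) that turned to -0.28 without HB2 and to -0.03 without HF2. Its RPF level was 173 and 111 RPKM in HF and 222 and 116 RPKM in HB. In each group library 1 was the higher, and the RPF log2 fold change of 0.21 (limits -0.92 to 1.35) turned to -0.25 without HB1 and to -0.11 without HF2. The TE of Gpx4 was 0.329 and 0.252 in HF and 0.563 and 0.174 in HB, a wide overlap, and its log2 change of 0.12 was 0.96 without HB2 and -0.73 without HB1.

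The codon that sets these selenoproteins apart is shown here for both genes, since a ribosome must read it as an amino acid to finish the protein. In the coding sequence of Gpx1 (transcript Gpx1-201 of the GENCODE annotation) it is codon 47 of 201, at chr9:108339451-108339453, and in that of Gpx4 (Gpx4-202) it is codon 73 of 197, at chr10:80054737-80054739, both on the plus strand of GRCm38. The lines give 30 bases on each side as DNA, 5′ to 3′, with the selenocysteine codon in capitals, and in each coding sequence it is the only set of stop letters in frame before the end.
Gpx1: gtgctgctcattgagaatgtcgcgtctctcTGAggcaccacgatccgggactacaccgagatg
Gpx4: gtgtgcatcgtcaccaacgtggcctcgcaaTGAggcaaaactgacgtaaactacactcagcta
The values per gene hold no positions, so they do not show how many ribosomes lay before or after this codon.

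Prdx1 (chr4:116685544-116700822, plus strand), the abundant cytosolic peroxiredoxin, had the largest mRNA change of the 10 genes in the fit of all libraries, while without HB1 that of Gpx1 was larger (1.37 against 1.36). Its mRNA level was 143 and 168 RPKM in HF and 544 and 399 RPKM in HB. Both HB libraries lay far above both HF libraries, with means of 156 ± 17.7 and 472 ± 102 RPKM (SD, 2 libraries each), a ratio of 3.03. The log2 fold change was 1.58 (SE 0.28, adjusted p = 0.00666, limma), above that of 98.8% of all tested genes. The unadjusted p of 0.000249 rose to 0.00192 without HF1 and to 0.00782 without the filter on low values, both past the 0.001 of the study's rule. The adjusted p ranged from 6.88e-05 to 0.157 over the alternatives (limma). The RPF level of Prdx1 was 366 and 491 RPKM in HF and 623 and 403 RPKM in HB. The RPF groups overlapped, with a log2 fold change of 0.24 (limits -0.66 to 1.14) that was -0.072 without HB1 and 0.56 without HB2, on 201 and 735 reads in HF and 227 and 81 reads in HB. The TE was 2.55 and 2.92 in HF and 1.15 and 1.01 in HB. No HB value came near an HF value, and the log2 change was -1.34 (limits -2.50 to -0.17, unadjusted p = 0.0308, adjusted p = 0.378, limma).

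The start of Prdx1 is shown because this gene was the only called one of the 10 for mRNA. Genes of this class are textbook targets of the transcription factor Nrf2, which binds the antioxidant response element. The core letters TGACNNNGC, or GCNNNGTCA on the other strand, were searched in the RefSeq promoters of GRCm38.p6 (250 bases before to 50 after the start), of which 9 of the 10 genes had an entry. They occurred in 2 of these 9 genes, Prdx1 and Sod1, against 14.0% of 27025 genes with a promoter of this length and 12.4% of 32851 promoters. The lines give the gene's strand from 5′ to 3′ with the match in capitals, which begins 133 bases before the start in Prdx1 (chr4:116685456-116685484) and 56 bases before it in Sod1 (chr16:90220696-90220724).
Prdx1: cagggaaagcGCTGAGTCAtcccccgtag
Sod1: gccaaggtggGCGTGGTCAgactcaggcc
Both matches lay on the strand opposite to the gene. Of the 2 genes, mRNA was called higher in Prdx1 and overlapped between the groups in Sod1. A match in letters is no evidence of binding, and binding was not measured.

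Prdx2 (chr8:84969587-84974834, plus strand), the other cytosolic member and an abundant protein of red blood cells, had 72.4 and 86.0 RPKM of mRNA in HF and 115 and 144 RPKM in HB. The HB libraries were both higher, with a log2 fold change of 0.70 (SE 0.26, adjusted p = 0.0744, limma). The adjusted p was 0.0346 without HB1 and ranged from 0.0344 to 0.442 over the alternatives (limma). Its RPF level was 67.9 and 62.6 RPKM in HF and 36.0 and 25.1 RPKM in HB. Both HB libraries were lower, and the RPF log2 fold change of -1.09 (limits -1.96 to -0.23, unadjusted p = 0.0229, adjusted p = 0.493, limma) was the only called RPF difference of the 10 genes. The change was 0.66 below the shift of all genes and lay above that of 22.7% of them. It rested on 37 and 93 reads in HF and on 13 and 5 reads in HB. The ratio of HB to HF in these reads, scaled by the totals, was 0.501, with exact 95% limits of 0.288 to 0.824 that cover counting error only. The call was lost without HF1, HF2 or HB2, with changes of -1.04, -1.15 and -0.84. It was also lost with all libraries set to a common median (-0.77), without the variance trend and with voom on reads (-0.97). The TE of Prdx2 was 0.937 and 0.729 in HF and 0.312 and 0.174 in HB, the largest TE difference of the 10, with a log2 change of -1.79 (limits -3.53 to -0.05, unadjusted p = 0.0454, adjusted p = 0.404, limma). It passed the threshold of the study without HB1, at -2.20. The summed red blood cell markers, given above for mRNA, were highest in HB2, as was Prdx2 mRNA, and in RPF they were 1109, 617, 2559 and 381 RPKM in HF1, HF2, HB1 and HB2, with Hbb-b1 and Hbb-b2 at 0 throughout. Their part in the result was not tested.

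**Figure D3:**
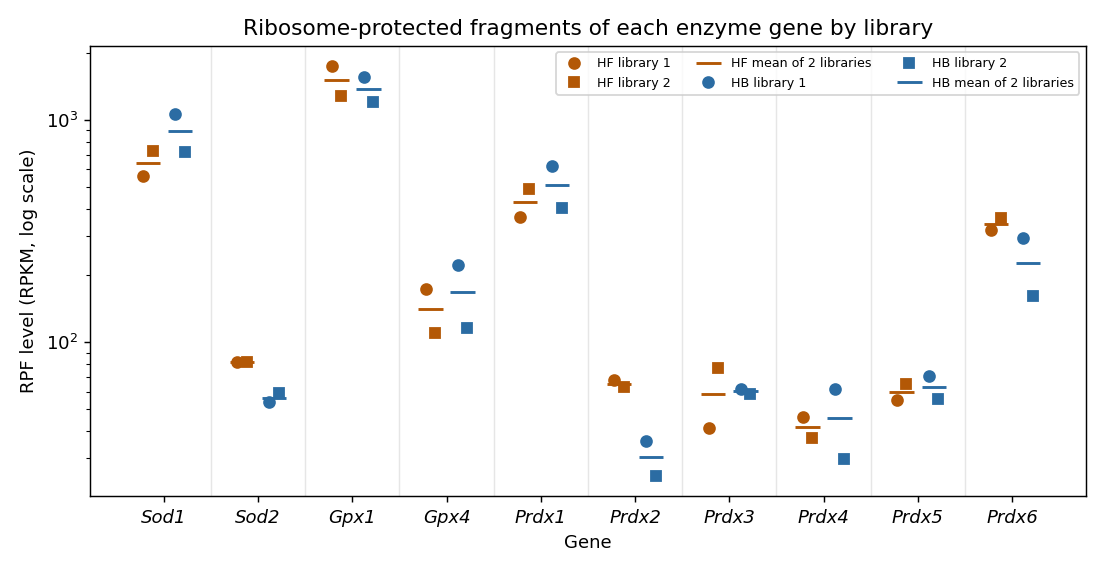
RPF level in RPKM (log axis) of the 10 genes in each Ribo-seq library, with circles for library 1, squares for library 2 and bars for group means. The groups do not overlap in Sod2, Prdx2 and Prdx6, where HB is lower, and they overlap in the other 7 genes.

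Prdx3 (chr19:60864051-60874556, minus strand), the peroxiredoxin of the mitochondrial matrix, had 38.5 and 37.3 RPKM of mRNA in HF and 86.8 and 58.4 RPKM in HB. It was the scarcest mRNA of the 10 in HF, and both HB libraries were higher, with a log2 fold change of 0.89 (SE 0.27, adjusted p = 0.0381, limma). The adjusted p rose past 0.05 without HF1 (0.163), HF2 (0.160) or HB1 (0.0909), and in rescaling to a common sum (0.0537), within a range over the alternatives of 0.00490 to 0.255 (limma). Without HB2 the change was 1.18 and the gene was called by the stricter rule. Its RPF level was 41.0 and 76.6 RPKM in HF and 61.9 and 58.5 RPKM in HB. The HB values lay between the HF values, and the RPF log2 fold change was 0.10 with limits of -0.93 to 1.13, turning to -0.34 without HF1 and 0.54 without HF2. The TE was 1.07 and 2.06 in HF and 0.713 and 1.00 in HB. The groups did not overlap by a small margin, with a log2 change of -0.79 (unadjusted p = 0.231) that ranged from -0.33 without the HF2 pair to -1.26 without the HF1 pair.

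Prdx5 (chr19:6906697-6910106, minus strand), found in mitochondria, peroxisomes and cytosol, had 285 and 337 RPKM of mRNA in HF and 384 and 549.9 RPKM in HB. Both HB libraries were higher, with a log2 fold change of 0.57 (limits -0.09 to 1.22, adjusted p = 0.173, limma). It was 0.31 without HB2 and 0.83 without HB1, where the adjusted p was 0.0406, in a range of 0.0406 to 0.603 over the alternatives (limma). The RPF level was 54.8 and 64.8 RPKM in HF and 70.4 and 55.5 RPKM in HB, which overlapped (log2 fold change 0.07, limits -0.72 to 0.85, with -0.10 without HB1 and 0.24 without HB2). Its mean TE was the lowest of the 10 in both groups, with 0.192 in both HF libraries and 0.183 and 0.101 in HB, where it overlapped with Prdx2. The log2 change of -0.50 was -0.073 without HB2 and -0.93 without HB1. The level is sensitive to the gene length, since the RPKM steps implied 688 bases in RNA-seq and 1271 bases in Ribo-seq. With a single length for both assays the TE of Prdx5 was 0.355 in HF, above Sod1 (0.286) and Gpx4 (0.226) on that basis. In HB it was 0.262, above Prdx2 (0.243). The implied lengths are the smallest that give whole reads in all libraries, so a multiple of either is possible and this order is not settled.

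Prdx4 (chrX:155323918-155340754, minus strand), which works in the endoplasmic reticulum where disulfides are formed, had 39.5 and 55.8 RPKM of mRNA in HF and 59.9 and 57.3 RPKM in HB. The HB libraries were above HF by a narrow margin (log2 fold change 0.31, limits -0.28 to 0.91, adjusted p = 0.402, limma), and the change was 0.070 without HF1 and 0.56 without HF2. The RPF level was 46.2 and 36.9 RPKM in HF and 61.5 and 29.7 RPKM in HB, on 17, 37, 15 and 4 reads. The RPF values in HB enclosed those in HF, and the exact 95% limits of the read ratio, 0.713 to 2.18, leave both directions possible from counting error alone. The TE of Prdx4 was 1.17 and 0.663 in HF and 1.03 and 0.519 in HB, with a log2 change of -0.26 that was 0.22 without HB2 and -0.74 without HB1.

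Prdx6 (chr1:161240112-161251219, minus strand), a peroxiredoxin that works with glutathione and also has phospholipase activity, had 119 and 130.1 RPKM of mRNA in HF and 235 and 213 RPKM in HB. The groups were well apart, with means of 124 ± 7.95 and 224 ± 16.0 RPKM (SD, 2 libraries each) and a log2 fold change of 0.84 (SE 0.26, adjusted p = 0.0367, limma). Without HF1 or HF2 the adjusted p was 0.280 and 0.159, in a range of 0.0155 to 0.280 over the alternatives (limma). The RPF level of Prdx6 was 319 and 362 RPKM in HF and 294 and 162 RPKM in HB. Here both HB libraries were lower, with a log2 fold change of -0.64 (limits -1.60 to 0.33, unadjusted p = 0.149), on 275 and 849 reads in HF and 168 and 51 reads in HB. The RPF change was -0.21 without HB2 and -1.07 without HB1, where it was called lower (unadjusted p = 0.0183, limma). The exact limits of the read ratio were 0.608 to 0.816, for counting error only. Such limits also lay below 1 for Prdx2 and Sod2 (0.5335 to 0.8601 in Sod2). They lay above 1 for Sod1 (1.184 to 1.604), Gpx4 (1.049 to 1.977) and Prdx1 (1.044 to 1.357), whose RPF groups overlapped. For Gpx1, Prdx3, Prdx4 and Prdx5 they included 1. The TE of Prdx6 was 2.68 and 2.78 in HF and 1.25 and 0.761 in HB, a log2 change of -1.48 (limits -2.74 to -0.21, unadjusted p = 0.0286, adjusted p = 0.378, limma). Leaving out HB2 gave a change of -1.12 and leaving out HB1 gave -1.84.

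**Figure D4:**
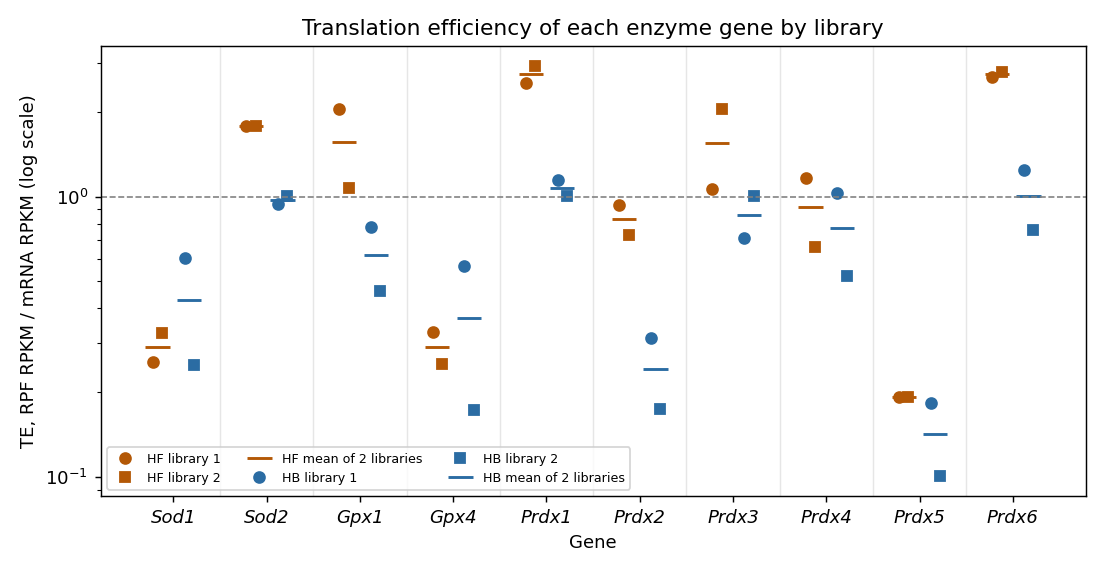
TE (RPF RPKM divided by mRNA RPKM, log axis) of the 10 genes for RNA-seq and Ribo-seq libraries of the same group and number, with bars for group means and a dashed line at 1. Both HB values lie below both HF values in 7 genes, and the groups overlap in Sod1, Gpx4 and Prdx4.

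The order of the 10 genes by mRNA level was led in HF by Sod1 (2205 ± 37.4 RPKM), Gpx1, Gpx4 (482 ± 62.6) and Prdx5 (311 ± 37.3), whose values did not overlap between neighbours. At the low end, Prdx4 and Sod2 overlapped in HF. In HB, Gpx1 (2310.1 RPKM) overlapped with Sod1 (2316 ± 787) at the top, and Prdx1 overlapped with Gpx4 and Prdx5. By RPF level Gpx1 came ahead of Sod1, Prdx1 and Prdx6 in both groups, whereas Prdx4 had the lowest mean in HF (41.6 RPKM), overlapping with Prdx3, and Prdx2 in HB (30.5 RPKM), overlapping with Prdx4. By TE, Prdx1 and Prdx6 led in HF with 2.74 ± 0.259 and 2.73 ± 0.0679, near percentile 83.4 of all genes, and overlapped each other but not Sod2 (1.79). In HB the same 2 genes stood at 1.08 and 1.01, at percentiles 57.8 and 54.7, and overlapped with Sod2 (0.972). Sod1 and Gpx4 had a TE of 0.291 each in HF, and with Prdx5 they formed the low end there. RPF and TE levels of different genes depend on the lengths behind the RPKM, which were equal in both assays for Sod2, Prdx1, Prdx2 and Prdx3. They differed in the other 6, most in Gpx1 (1047 and 521 bases, where the latter could also be its double with the reads doubled) and Prdx5. A comparison of HB with HF within a gene does not depend on the length.

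Summed over the 10 genes, mRNA reached 4294 and 4733 RPKM in HF and 5641 and 7639 RPKM in HB. These genes took 0.390% and 0.435% of the RNA-seq reads in HF and 0.582% and 0.732% in HB, so the groups did not overlap. Summed RPFs were 3454 and 3301 RPKM in HF and 4046 and 2832 RPKM in HB. The share of Ribo-seq reads was 0.321% and 0.335% in HF and 0.370% and 0.255% in HB, and here HB lay on both sides of HF. With the Gpx1 reads doubled, which its implied length allows, the shares were 0.412% and 0.402% in HF and 0.451% and 0.318% in HB, in the same arrangement.

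Other entries of the Sod, Gpx and Prdx families numbered 9. Sod3, the secreted dismutase, had 11.7 to 15.1 RPKM of mRNA, and the plasma selenoprotein Gpx3 had 3.44 to 11.0 RPKM. The other 7 stayed at or below 2.07 RPKM of mRNA, among them Prdx6b, a retrocopy of Prdx6 (at most 0.0297 RPKM of mRNA), and the pseudogene Gpx2-ps1 at 0 in all 8 libraries. How reads that match both a gene and a processed pseudogene were counted is not given in the sources used here. Of the list of other peroxide and superoxide enzymes, 5 of 9 were tested for mRNA and 0 had an adjusted or unadjusted p under 0.05 (limma). Catalase (Cat) had 706 and 679 RPKM of mRNA in HF and 1117 and 903 RPKM in HB, a log2 fold change of 0.53 (adjusted p = 0.186, limma) with non-overlapping groups. For RPF, Gpx3 was called lower (against 7.86% of all tested genes, adjusted p = 0.493, limma) on 2 and 5 reads in HF, with both HB libraries listed at 0, and its TE was called lower on the same reads (adjusted p = 0.378, limma).

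Among 9 tested genes of 10 in the thioredoxin system and peroxiredoxin repair, 1 was called at the mRNA level (against 6.56% of all tested genes called lower), Txnip, an inhibitor of thioredoxin. It fell from 54.1 and 45.1 RPKM in HF to 19.6 and 21.3 RPKM in HB, a log2 fold change of -1.23 (adjusted p = 0.00928, limma). Srxn1, which repairs overoxidised peroxiredoxins, had a log2 fold change of 0.75 (adjusted p = 0.0568, limma). The reductants and reductases of the pathway had mRNA log2 fold changes of -0.25 (Txn1), 0.14 (Txn2), 0.31 (Txnrd1) and 0.18 (Txnrd2), none with an adjusted p under 0.05. For RPF, Txnrd3 was called higher (against 1.58% of all tested genes, adjusted p = 0.493, limma), on 0 and 6 reads in HF and 8 and 3 reads in HB. Its TE was called higher on the same reads (log2 change 2.15, adjusted p = 0.378, limma), against 6.09% of all genes called in either direction.

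Of the 12 genes of glutathione supply and glutaredoxins, 10 were tested for mRNA, 2 had an adjusted p under 0.05 in the higher direction and 1 in the lower, against 7.92% and 19.1% of all tested genes. Glrx5, a mitochondrial glutaredoxin of iron-sulfur cluster assembly, rose from 51.1 and 47.8 RPKM to 176 and 183.9 RPKM (log2 fold change 1.84, adjusted p = 0.00523, limma). Glrx3 rose by a log2 of 0.88 (adjusted p = 0.0291, limma). Gclc, the catalytic subunit of the rate-limiting enzyme of glutathione synthesis, fell from 99.0 and 110.9 RPKM to 55.7 and 53.2 RPKM (log2 fold change -0.93, adjusted p = 0.0232, limma). The TE of Glrx5 was called lower (log2 change -2.30, adjusted p = 0.364, limma), with 28 and 88 RPF reads in HF and 23 and 5 in HB, against 6.09% of all genes called in either direction. RPFs of Gclm, the modifier subunit, were called lower (-1.06, adjusted p = 0.493, limma), on 38 and 86 reads in HF and 13 and 5 in HB, against 7.86% of all genes.

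Of 22 other selenoproteins, 17 were tested for mRNA, and 4 had an adjusted p under 0.05, all higher in HB, against 7.92% of all tested genes, while 0 passed the stricter rule (limma). They were Msrb1 (1.20, adjusted p = 0.0117), which repairs oxidised methionine, Selenof (1.22, 0.0122), Selenoh (1.23, 0.0159) and Selenop (1.43, 0.0213), the selenium carrier secreted by the liver, with log2 fold changes and adjusted p from limma. Selenop had 519 and 749.9 RPKM of mRNA in HF and 2339 and 1217 RPKM in HB, and 3825 and 3040.5 RPKM of RPF in HF and 2581 and 2833 RPKM in HB. Like Gpx1, it thus had higher mRNA in both HB libraries, but its RPFs were lower in both, and its TE changed by -1.77 (unadjusted p = 0.0242). Of the 7 tested genes that insert selenocysteine or use selenium, 2 fell and 0 rose in mRNA at an adjusted p under 0.05, against 19.1% and 7.92% of all tested genes. Sepsecs, which makes selenocysteine on its transfer RNA, went from 19.6 and 20.5 RPKM to 8.02 and 6.92 RPKM (log2 fold change -1.31, adjusted p = 0.00748, limma). Secisbp2, the protein that binds the selenocysteine insertion element, went from 11.4 and 10.4 RPKM to 5.39 and 4.93 RPKM (-0.95, adjusted p = 0.0210, limma). RPFs of Sepsecs were 19.9 and 26.3 RPKM in HF and 24.8 and 21.8 RPKM in HB, which overlapped.

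All 6 genes of metal loading were tested for mRNA, and 1 rose and 2 fell at an adjusted p under 0.05, against 7.92% and 19.1% of all tested genes (limma). Ccs, the copper chaperone of Sod1, had 221 and 219 RPKM of mRNA in HF and 196 and 289 RPKM in HB (log2 fold change 0.11, adjusted p = 0.792, limma), and its groups overlapped as those of Sod1 did. Slc31a1, the copper importer, rose by a log2 of 0.93 (adjusted p = 0.0299, limma). Slc39a14, a manganese, zinc and iron importer, fell by 0.91 on the log2 scale (adjusted p = 0.0252, limma), and Slc25a37, a mitochondrial iron importer, by 1.29 (adjusted p = 0.0105, limma).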

How the data were processed

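RNA-seq and Ribo-seq of liver gave 2 libraries per group. The authors mapped the reads with FANSe2 against mm10, and the deposited values are RPKM for every gene in each library. They used edgeR, which needs counts and was not used on these values here. The 10 genes and the lists were chosen with earlier results of these data known; every one of the 10 is named, and of each list the genes called or at an adjusted p under 0.05 in mRNA and those with a direct role beside a member.

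Genes with a mean of at least 1 RPKM were tested with limma 3.58.1 (R 4.3.3; lmFit, eBayes with trend, two-sided, group only) on log2(RPKM + 1), a scale that understates changes of low genes. TE was tested on the log2 ratio of libraries with the same group and number. P-values were Benjamini-Hochberg adjusted over all tested genes (10687 for mRNA, 11190 for RPF, 9455 for TE). Calls used the thresholds of the study. With 2 libraries against 2, an exact permutation test cannot go below p = 0.333, so none was used.

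Library totals and whole reads were recovered from the RPKM steps for 99.95% of genes (tolerance 0.005 reads); the recovered reads made up 89.7% to 91.0% of the RNA-seq totals and 97.6% to 98.4% of the Ribo-seq totals. They gave the read numbers, the lengths, the exact binomial limits (for counting error alone, as PCR copies were not told apart) and a voom alternative. Libraries of the real totals were simulated with a spread set in advance and not fitted to these data. Of 200 genes changed by a log2 of 2, 82.0% were called for mRNA and 93.5% for RPF, with 0 of 10499 and 451 of 10737 unchanged genes called. For mRNA, some changed genes failed the filter on low values and counted as not called. The alternatives were another pseudocount (0.1), no filter or a mean of at least 5 RPKM, other scalings, no trend, a replicate block, an adjusted p, each library left out, an interaction model and crossed numbers for TE; voom and a crossed block were added after seeing the data. Annotation was GENCODE M21 (GRCm38), and promoter sequences were from RefSeq (GRCm38.p6). Python 3.11.15, numpy 2.4.6, pandas 2.3.3 and scipy 1.17.1 were used.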

Additional observations from a re-analysis of the deposited data

How the results depend on the processing

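The number of the 10 genes called higher in mRNA, 1 in the fit described, was 0 without the filter on low values, 2 with the replicate block, 4 at an adjusted p under 0.05, and 0 to 2 with each library left out. The median mRNA change was 0.91 at a common median. The number called lower in RPF, also 1, was 3 at a common sum and 0 at a common median, without the variance trend, at an adjusted p under 0.05 and with voom, and 0 to 2 with each library left out. The share of all genes called was worked out for the fit described and not for these settings. Rescaling to a common sum lowered the RPF and TE changes of all 10 genes. The median RPF change was -0.80 and the median TE change -1.65 there, and 4 genes were called lower in TE. With each library left out this TE number was 0 to 1.

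At a common sum the change turned to -0.016 for Sod1 mRNA, to -0.42 (Sod1), -0.65 (Gpx4), -0.63 (Prdx1), -0.76 (Prdx3), -0.80 (Prdx4) and -0.79 (Prdx5) for RPF, and to -0.40 (Sod1) and -0.71 (Gpx4) for TE. Gpx1 RPF turned to 0.20 at a common median. With each library left out, the changes that took both signs ranged from -0.33 to 0.38 (Sod1) and -0.28 to 0.48 (Gpx4) for mRNA. For RPF they ranged from -0.35 to 0.090 (Gpx1), -0.25 to 0.68 (Gpx4), -0.072 to 0.56 (Prdx1), -0.34 to 0.54 (Prdx3), -0.46 to 0.56 (Prdx4) and -0.10 to 0.24 (Prdx5), and for TE from -0.21 to 1.06 (Sod1), -0.73 to 0.96 (Gpx4) and -0.74 to 0.22 (Prdx4). The cause was not tested. Of the alternative values of single genes in which the change could move, 73 of 80 for mRNA, 55 of 80 for RPF and 58 of 70 for TE kept their direction and their side of the threshold, and 4, 17 and 7 changed direction. In the other 60, 50 and 70 the change is the same by construction and only its p can differ.

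The replicate numbers did not pair the libraries, since the deviations of same-numbered libraries from their group means had correlations across genes of -0.10 for mRNA and -0.01 for RPF. The replicate block gave 2 mRNA calls and 1 RPF call, and a crossed block gave 1 mRNA call. Ribo-seq depth was low, with 4 to 117 reads per library behind Prdx2, Prdx3, Prdx4 and Prdx5.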
